A study of Mus musculus with 12 samples.

Results

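The genes described here handle calcium at the endoplasmic reticulum (ER), the cell's main internal calcium store. They were taken by name, as 9 of the 24020 genes in the count table: the IP3 receptors Itpr1, Itpr2 and Itpr3, the ryanodine receptors Ryr1, Ryr2 and Ryr3, the pump Atp2a2, and the sensors Stim1 and Stim2. All 9 had counts. The hypothalamus came from mice of the Wfs1tm1Koks line, with 4 individuals of each genotype (wild-type, heterozygous and homozygous) and 1 RNA-seq library per individual. The strain label is the same for all 3 genotypes, wild-type mice included. Age, sex and treatment are not given in the labels. Wild-type libraries carry the numbers 1, 2, 3 and 5, heterozygous libraries 1 to 4, and homozygous libraries 1, 2, 4 and 5, and per-library values follow that order throughout. No label carries the number of homozygous column 5, which was placed by its genotype. The labels also hold a homozygous sample 3, for which there is no column of that number. Whether column 5 is that sample is not known.

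The ER is filled by SERCA pumps, which use ATP to move calcium from the cytosol into the lumen, and Atp2a2 encodes the form found in most tissues. Calcium leaves through IP3 receptors, which open after receptors at the cell surface activate phospholipase C, and through ryanodine receptors, which open when cytosolic calcium rises. When the lumen empties, calcium leaves the EF hand of STIM proteins, which then gather beneath the plasma membrane and open ORAI channels. Wfs1 encodes wolframin, an ER membrane protein whose loss causes Wolfram syndrome, and ER calcium handling is among the processes linked to it.

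Levels are CPM, a gene's counts scaled to the same library size, with library sizes scaled by the trimmed mean of M values (TMM). Libraries held 979394 to 2330872 counts, so a gene at a few CPM rests on a handful of reads. Wfs1 stood at 114 to 167 CPM in wild-type, 81.8 to 103 CPM in heterozygous and 14.8 to 20.1 CPM in homozygous libraries, without overlap, and the exons behind the remaining counts are not known. Hypothalamic markers were present in every genotype, with summed levels of 862 to 1270, 955 to 1500 and 976 to 1350 CPM. Libraries also differed in base composition. The GC slope, the change of log2 level with each 10 points of transcript GC percent over 10624 genes, was 0.0326, 0.204, 0.334 and 0.217 in wild-type, −0.0167, 0.22, −0.0151 and 0.0513 in heterozygous, and −0.036, 0.0232, −0.476 and −0.539 in homozygous libraries. Homozygous replicates 4 and 5 thus stood apart from the rest, and no homozygous slope reached the lowest wild-type one. These are bulk tissue libraries, in which fewer cells of a type and less RNA per cell cannot be told apart.

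The feature that gives STIM proteins their calcium sense is the loop of the EF hand in the ER lumen. The coding sequence of that loop is shown for both sensors, of which Stim1 passed the test between homozygous and wild-type mice and Stim2 did not. Both are read 5′ to 3′ on the coding strand of GENCODE M21 transcripts (mouse build mm10). Capitals mark the 12 codons of the loop, found by its residue pattern, and lower case marks 6 codons on each side.
Stim1: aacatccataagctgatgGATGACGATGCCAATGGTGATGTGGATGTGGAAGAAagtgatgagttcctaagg
Stim2: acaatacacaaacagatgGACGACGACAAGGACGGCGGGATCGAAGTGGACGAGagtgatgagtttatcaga
The Stim1 stretch lies at chr7:102354569-102386095 on the plus strand, across exons 2 and 3 of 12, and the Stim2 stretch at chr5:54053444-54075288 on the plus strand, also across exons 2 and 3 of 12. Of the 36 capital bases, 21 were the same in both genes, and of all 72 bases 47 were the same.

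IP3 and ryanodine receptors are related tetrameric channels with a common glycine-rich selectivity filter at the mouth of the pore. The filter sequences are shown because they set the 6 release channel genes side by side at base level over this short stretch. Capitals mark the 6 codons of the filter, found by its residue pattern, with 6 codons on each side in lower case, again 5′ to 3′ on the coding strand of GENCODE M21 transcripts.
Itpr1: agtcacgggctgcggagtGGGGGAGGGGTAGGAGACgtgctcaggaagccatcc
Itpr2: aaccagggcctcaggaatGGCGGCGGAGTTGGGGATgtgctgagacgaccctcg
Itpr3: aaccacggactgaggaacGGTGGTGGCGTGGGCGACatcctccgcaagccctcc
Ryr1: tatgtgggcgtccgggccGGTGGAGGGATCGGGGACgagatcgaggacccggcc
Ryr2: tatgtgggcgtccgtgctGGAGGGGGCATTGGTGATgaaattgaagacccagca
Ryr3: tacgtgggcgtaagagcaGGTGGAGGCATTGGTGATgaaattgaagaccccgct
In mm10 they lie at chr6:108518770-108518823 in exon 58 of 62 (Itpr1, plus strand), chr6:146158893-146158946 in exon 52 of 56 (Itpr2, minus strand) and chr17:27118613-27118666 in exon 54 of 58 (Itpr3, plus strand). The ryanodine receptor stretches lie on the minus strand, at chr7:29005580-29005633 in exon 102 of 106 (Ryr1), chr13:11560609-11560662 in exon 101 of 105 (Ryr2) and chr2:112636613-112636666 in exon 100 of 104 (Ryr3). Ryr2 and Ryr3 shared 45 of the 54 bases, the most of any pair. Itpr1 and Itpr2 shared 34, and pairs of an IP3 with a ryanodine receptor shared 22 to 31. Likeness in the capitals is set in part by the search for the residue pattern. These stretches do not show how alike the whole genes are. How the authors counted reads that fit more than 1 gene is not given in the sources used here.

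In wild-type hypothalamus the pump was by far the most abundant of the 9 per transcript length. Atp2a2 stood at 162 ± 14.4 CPM per kb of its longest coding transcript (SD, n = 4), with libraries from 148 to 182. Itpr1, the IP3 receptor best known from neurons, followed at 18.3 (17.4 to 19.1), then Stim2 at 15.2 (12.7 to 17.9), Ryr2 at 13.7 (11.7 to 16.0) and Stim1 at 12.5 CPM per kb (11.4 to 13.7). Along that series each gene's wild-type range overlapped that of its neighbour, so the order of direct neighbours is not set, although Itpr1 lay wholly above Ryr2 and Stim1. Ryr3 stood lower at 6.88 CPM per kb (6.26 to 7.58), and Itpr2, the form best known from astrocytes and heart, at 3.76 (3.43 to 3.99). Neither overlapped a neighbour above or below. Ryr1, the skeletal muscle form, and Itpr3, common in secretory epithelia, stood last at 0.506 (0.286 to 0.712) and 0.350 CPM per kb (0.0816 to 0.730), and their ranges overlapped. With all exons of a gene in place of 1 transcript, Stim1 came below Ryr3 (5.27 against 5.60 CPM per kb) and Itpr1 below Stim2 (9.88 against 14.6), while the other 5 genes held the same places. In homozygous libraries Stim1 stood at 6.93 ± 0.831 CPM per kb and its range of 6.23 to 8.13 overlapped that of Ryr3, 6.94 to 9.27.

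**Figure D1:**
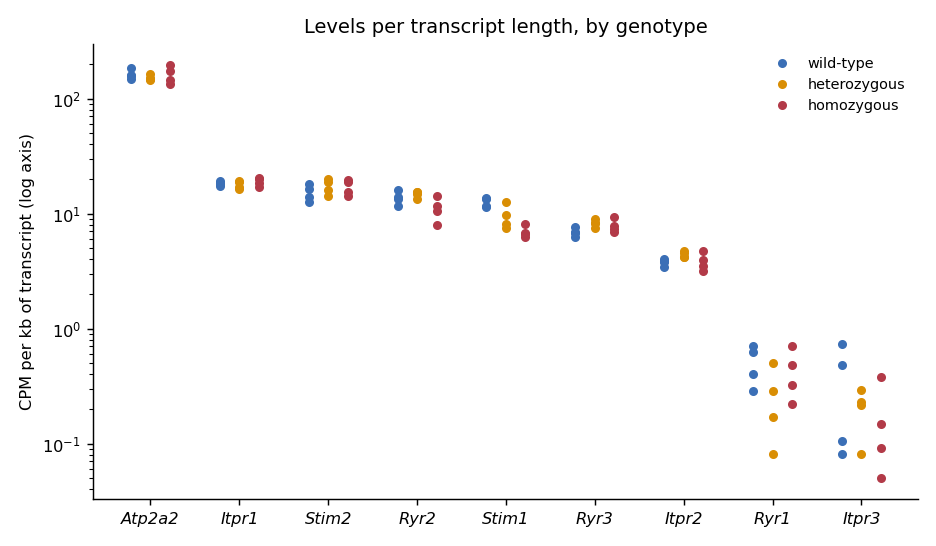
TMM-scaled CPM per kb of the longest coding transcript (y axis, log scale) of the 9 genes (x axis) in all 12 libraries (points, coloured by genotype). Atp2a2 lies far above the rest, near 162 in wild-type libraries, and Ryr1 and Itpr3 lie below 1.

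The first comparison, homozygous against wild-type mice, asks which of these genes differ when wolframin is lost. Stim1 fell, and the other 7 genes tested did not pass the threshold. Itpr3 had too few counts to enter the test. The test was edgeR's quasi-likelihood F test over 10737 genes, and called genes are those with a Benjamini-Hochberg adjusted p below 0.05. Of all genes 25.4% were called, 13.7% higher (1475) and 11.6% lower (1248). With upper-quartile scaling that split turned over, to 1238 higher and 1575 lower. Against this background, 1 call among 8 tested members is 12.5%, below the share of all genes. The median log2 fold change of the 8 was 0.0154, beside −0.0266 over all genes. CPM ranges of the 2 groups did not overlap for 1 of the 8, and for 23.6% of all genes. p-values here measure the spread between individual mice.

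**Figure D2:**
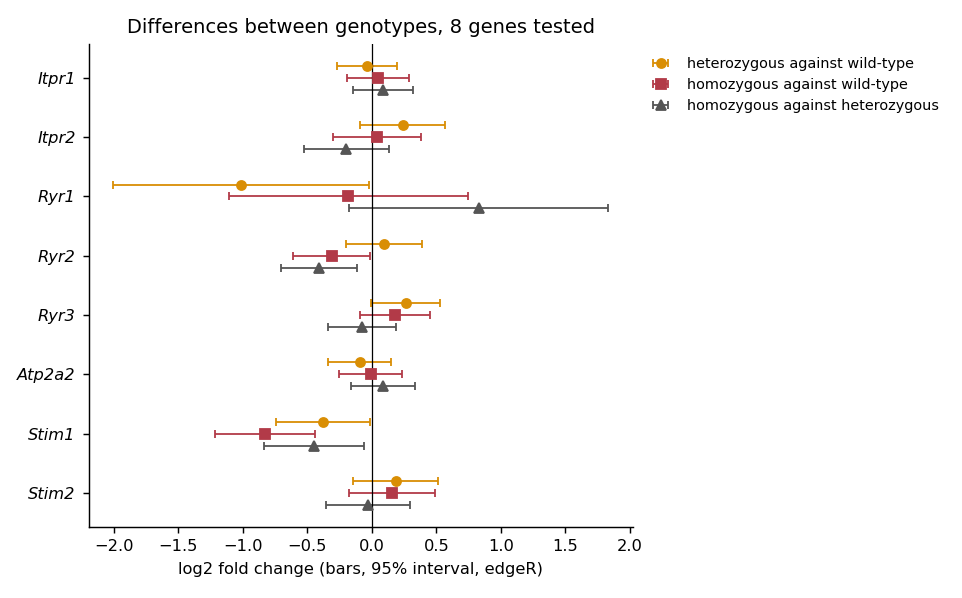
log2 fold change (x axis) with its 95% interval (bars, edgeR) of the 8 genes tested (y axis) in each comparison of genotypes (colours). The interval of Stim1 for homozygous minus wild-type, −1.22 to −0.44, lies farthest from 0 and that of Ryr1 is the widest.

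Stim1, the sensor that drives store-operated entry after strong store depletion, was the member that changed. Wild-type libraries held 49.9, 59.9, 58.3 and 50.4 CPM (68, 63, 80 and 81 counts). Heterozygous libraries held 35.4, 54.6, 33.0 and 42.0 CPM, and homozygous libraries 28.8, 35.5, 27.2 and 29.4 CPM (43, 79, 33 and 26 counts). Every homozygous library lay below every wild-type one, while heterozygous libraries spread between them: replicate 2 lay within the wild-type range, replicates 1 and 3 within the homozygous range, and replicate 4 in the gap. By genotype Stim1 averaged 54.6 ± 5.25 CPM in wild-type, 41.2 ± 9.72 CPM in heterozygous and 30.2 ± 3.63 CPM in homozygous mice (SD, n = 4 each). The difference between homozygous and wild-type mice was a log2 fold change of −0.83 (SE 0.187, 95% interval −1.22 to −0.44, edgeR adjusted p = 0.00257). DESeq2 gave an adjusted p of 0.00197 and limma-voom 0.00632, and leaving out any 1 library gave −0.93 to −0.78. Stim1 lies at chr7:102267806-102437319 on the plus strand (ENSMUSG00000030987.5), away from chromosome 5, which holds Wfs1.

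Base composition moved with Stim1. Its transcript has 54.5% GC, close to the median of 54.8% for all genes called lower, beside 44.8% for those called higher and 49.5% for those not called. With the GC slope of each library as a covariate the fold change was −0.48 and the call ended (adjusted p = 0.277). With an offset for length and GC it was −0.56 (adjusted p = 0.0184), and without homozygous replicates 4 and 5 it was −0.74 (adjusted p = 0.0206). Among heterozygous libraries, replicate 2 had the highest slope (0.22) and the highest Stim1 level, and replicates 1 and 3 the lowest of both. Within the other genotypes slope and level matched in part. Homozygous replicate 2 had the highest of both, but replicates 1 and 5, with slopes of −0.036 and −0.539, held 28.8 and 29.4 CPM. Wild-type replicate 1 had the lowest of both, but the highest slope was in replicate 3 (0.334) and the highest level in replicate 2 (59.9 CPM). The slopes of wild-type and homozygous libraries did not overlap, so genotype and base composition cannot be told apart in this comparison. Counts of the ribosomal RNA precursor Rn45s moved with Stim1 as well. Rn45s stood at 1386, 1983, 1786 and 958 CPM in wild-type, 378, 788, 379 and 352 CPM in heterozygous and 316, 352, 95.6 and 85.8 CPM in homozygous libraries. Of 11 marker lists, 2 had summed levels that did not overlap between wild-type and homozygous libraries. Smooth muscle and pericyte markers (8, of which 3 were tested and 1 was called lower) summed to 60.9 to 65.3 CPM in wild-type, 39.4 to 62.3 CPM in heterozygous and 41.6 to 46.3 CPM in homozygous libraries. Neuron markers (7, all tested, 3 called higher and 1 lower) summed to 4930 to 6110, 5890 to 6650 and 6440 to 9000 CPM. Their median log2 fold change was −0.11, so the higher sum does not hold for the typical neuron marker. Those called higher had a median GC of 46.1%, and the 1 called lower had 54.8%. The part of ribosomal RNA and of these cell types in the result was not tested.

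**Figure D3:**
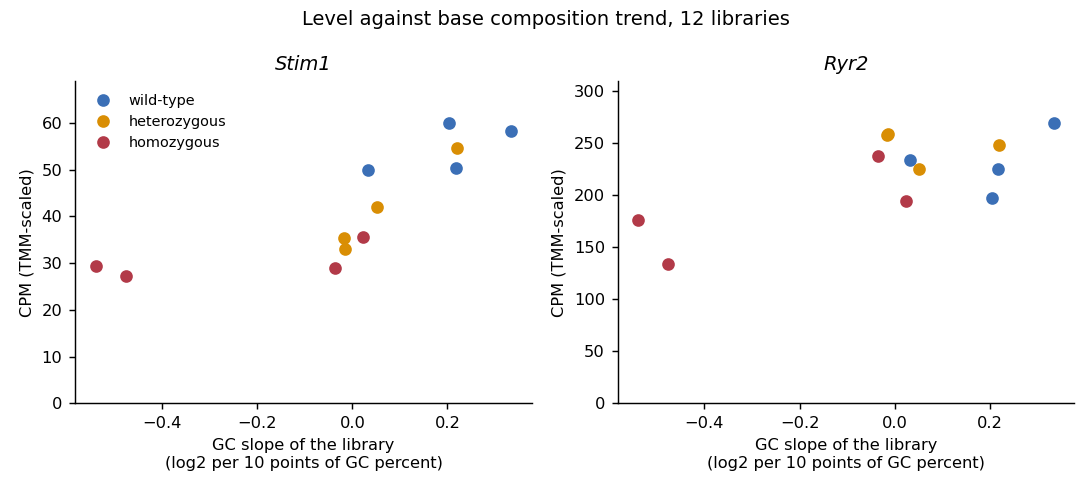
TMM-scaled CPM of Stim1 and Ryr2 (y axes) in each of the 12 libraries (points, coloured by genotype) against the GC slope of the library (x axis, log2 per 10 points of GC percent). Homozygous replicates 4 and 5 lie far left, at −0.476 and −0.539, and hold the lowest Ryr2 levels, whereas all homozygous libraries are low for Stim1.

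Stim2, the sensor that responds to small drops in ER calcium, was not called. It stood at 79.9, 88.5, 69.2 and 62.8 CPM in wild-type, 70.7, 78.4, 98.2 and 93.2 CPM in heterozygous, and 96.6, 69.6, 75.8 and 92.6 CPM in homozygous libraries. All 3 groups overlapped. The log2 fold change of homozygous against wild-type mice was 0.15 (SE 0.161, 95% interval −0.18 to 0.49, edgeR adjusted p = 0.519). Stim2 lies on the same chromosome as Wfs1, at a distance of 17 Mb, and its transcript has less GC than that of Stim1 (47.45%). Set against Stim2 within each library, Stim1 counts were 0.624, 0.677, 0.842 and 0.802 of Stim2 counts in wild-type and 0.299, 0.51, 0.359 and 0.317 in homozygous libraries. In heterozygous libraries the ratio was 0.50, 0.697, 0.336 and 0.451. The ratio needs no scaling between libraries, and its wild-type and homozygous values did not overlap. It does not remove the trend with base composition, as the 2 transcripts differ in GC (54.49 and 47.45%). The part of that trend in the ratio was not tested. Per transcript length Stim1 made up 45.3 ± 3.48% of the pair in wild-type mice, 35.4 ± 6.84% in heterozygous mice and 29.3 ± 5.09% in homozygous mice (SD, n = 4 each). With all exons as the length these shares were 26.6 ± 2.74%, 19.5 ± 4.72% and 15.4 ± 3.28%.

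**Figure D4:**
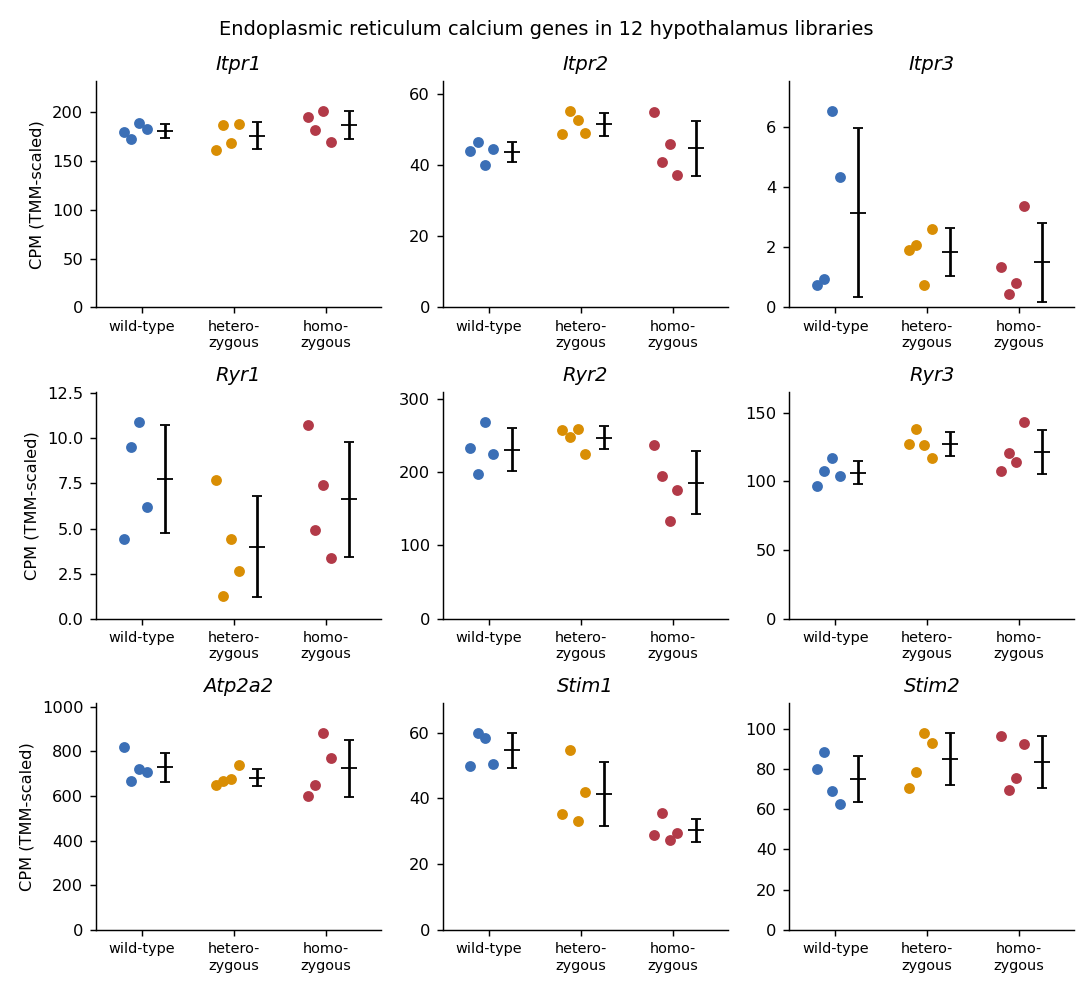
TMM-scaled CPM (y axis) of each of the 9 genes, with 1 point per hypothalamus library and the genotypes along the x axis. The mean and SD stand to the right of each group's points. Stim1 is the panel in which all homozygous libraries (27.2 to 35.5 CPM) lie below all wild-type libraries (49.9 to 59.9 CPM).

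Ryr2, the ryanodine receptor of heart and the main one of many neurons, was low in part of the homozygous libraries. Wild-type libraries held 233, 197, 269 and 224 CPM and heterozygous libraries 257, 248, 259 and 225 CPM. Homozygous replicates 1 and 2 held 237 and 194 CPM, close to the wild-type values, whereas replicates 4 and 5 held 134 and 176 CPM. The groups overlapped. Against wild-type mice the log2 fold change was −0.31 (SE 0.145, 95% interval −0.61 to −0.01), which did not pass edgeR's test (adjusted p = 0.118). The low values sit in the libraries that stand apart in base composition: without homozygous replicates 4 and 5 the fold change was −0.10 (adjusted p = 0.689), and with the GC slope as a covariate −0.02 (adjusted p = 0.959). Without homozygous replicate 1 it was −0.45 and passed the threshold (adjusted p = 0.022). The Ryr2 transcript itself has 49.57% GC, near the middle of all genes.

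Ryr3, a ryanodine receptor found in brain and at lower levels in many other tissues, did not show the low values of Ryr2. It stood at 96.8, 108, 117 and 104 CPM in wild-type, 127, 138, 127 and 117 CPM in heterozygous and 107, 121, 114 and 143 CPM in homozygous libraries. The log2 fold change of homozygous against wild-type was 0.18 (SE 0.131, 95% interval −0.09 to 0.45, edgeR adjusted p = 0.324). Counts of Ryr2 were 2.41, 1.83, 2.29 and 2.16 times those of Ryr3 in wild-type and 2.02, 1.80, 2.04 and 1.93 times in heterozygous libraries. In homozygous libraries the ratio was 2.21 and 1.61 in replicates 1 and 2, and 1.17 and 1.23 in replicates 4 and 5. Homozygous replicates 2, 4 and 5 lay below every library of the other genotypes, and replicate 1 lay among the wild-type values. Ryr3 exons overlap those of Aven on the other strand over 916 bases, and since the strand of the counts is not given, reads from that stretch could belong to either gene.

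Ryr1, the skeletal muscle release channel, was barely detected. Its counts were 6, 10, 15 and 10 in wild-type, 12, 3, 6 and 4 in heterozygous, and 16, 11, 9 and 3 in homozygous libraries. At this depth a difference could not be resolved: for homozygous against wild-type the 95% interval of the log2 fold change ran from −1.11 to 0.74 (edgeR adjusted p = 0.797). Of the ryanodine receptors per transcript length, Ryr1 made up 2.38% in wild-type mice, Ryr2 64.9 ± 3.03% and Ryr3 32.7%. In homozygous mice Ryr2 made up 56.6 ± 6.58% (SD, n = 4) and Ryr3 41.1 ± 6.97%.

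Among the IP3 receptors, Itpr1 and Itpr2 showed no difference that passed the test. Itpr1 stood at 180, 172, 189 and 183 CPM in wild-type, 161, 187, 169 and 188 CPM in heterozygous and 195, 182, 202 and 169 CPM in homozygous libraries. The log2 fold change of homozygous against wild-type was 0.05 (SE 0.115, 95% interval −0.19 to 0.29, edgeR adjusted p = 0.791). Itpr2 stood at 44.0, 46.6, 40.1 and 44.8 CPM in wild-type and 55.0, 40.9, 46.1 and 37.3 CPM in homozygous libraries, and its log2 fold change was 0.04 (SE 0.165, 95% interval −0.30 to 0.38, edgeR adjusted p = 0.882). Homozygous and wild-type libraries overlapped for both genes. Itpr3 had 1, 1, 9 and 7 counts in wild-type, 3, 5, 1 and 4 in heterozygous, and 2, 1, 1 and 3 in homozygous libraries, too few for a comparison. Per transcript length Itpr1 made up 81.7 ± 0.757% of the IP3 receptors in wild-type mice, 79.4 ± 0.976% in heterozygous mice and 82.6 ± 1.61% in homozygous mice (SD, n = 4 each).

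Atp2a2, which encodes SERCA2, showed no difference that these libraries could resolve. Wild-type libraries held 818, 665, 723 and 707 CPM, heterozygous libraries 648, 667, 677 and 738 CPM, and homozygous libraries 599, 647, 883 and 771 CPM. The highest and the lowest of the 12 values both came from homozygous mice. Homozygous replicates 1 and 2 lay below every wild-type library, and replicates 4 and 5, which stand apart in base composition, held 883 and 771 CPM. The log2 fold change of homozygous against wild-type was −0.01 (SE 0.119, 95% interval −0.26 to 0.24, edgeR adjusted p = 0.962). Under the alternatives other than omission of a single library it ran from −0.32, beyond that interval, to 0.09, and was never called. Atp2a2 lies 85.5 Mb from Wfs1 on chromosome 5. The other SERCA genes were near absent: Atp2a1, the pump of fast muscle, had no count in wild-type libraries, where 3 counts over the group would be 0.556 CPM, and Atp2a3, the form of blood and epithelial cells, stood at 1.12 ± 0.722 CPM there (SD, n = 4).

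The second comparison, heterozygous against wild-type mice, asks whether 1 mutant allele is enough to move these genes. No member was called. In edgeR 2 of the 8 tested (Ryr1 and Stim1) had an unadjusted p under 0.05. The share of all genes under that unadjusted threshold is not given here, so this count has no background. The other tools, DESeq2 and limma-voom, also called 0. Over all genes edgeR called 0.596%, with 0.512% higher. Stim1 had a log2 fold change of −0.38 (SE 0.177, 95% interval −0.74 to −0.01, adjusted p = 0.337). Ryr1 had −1.01 (SE 0.480, 95% interval −2.004 to −0.02, adjusted p = 0.343) on 25 counts in heterozygous and 41 in wild-type libraries. Itpr2 was the 1 tested member whose groups did not overlap, with 48.9, 55.5, 52.7 and 49.2 CPM in heterozygous libraries, all above the wild-type maximum of 46.6 CPM. Ranges of this kind were seen for 9.34% of all genes, and the log2 fold change of 0.24 (SE 0.161, adjusted p = 0.529) did not pass. Ryr3 had 0.26 (SE 0.129, adjusted p = 0.366), and heterozygous replicate 4 fell just within the wild-type range.

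The third comparison, homozygous against heterozygous mice, asks what the second mutant allele adds. No member was called here either, while edgeR called 2.2% of all genes, 1.74% higher. Again 2 of the 8 (Ryr2 and Stim1) had an unadjusted p under 0.05 in edgeR, and the share of all genes under it is not given here. DESeq2 and limma-voom called 0. Stim1 had a log2 fold change of −0.45 (SE 0.188, 95% interval −0.84 to −0.06, adjusted p = 0.179). Of its 3 differences, the 1 between homozygous and wild-type mice passed the threshold. Ryr2 had −0.41 (SE 0.144, 95% interval −0.71 to −0.11, adjusted p = 0.117). Without homozygous replicate 1 Ryr2 reached −0.55 and was called (adjusted p = 0.0234), and without homozygous replicates 4 and 5 it was −0.20 (adjusted p = 0.736). None of the 8 had ranges without overlap in this comparison, against 9.48% of all genes. This comparison and the first share the homozygous libraries, and the first 2 share the wild-type libraries.

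Genes that work with the 9 members were followed in the same homozygous against wild-type test, in lists of the pathway. They hold 123 genes, of which 114 are in the table and 90 were tested. Of these 33 were called, 15 higher and 18 lower, which is 36.7% beside the background of 25.4%, with a list median log2 fold change of −0.0438. The lists were chosen with earlier results of these data known. A share above the background, here or in any single list below, is therefore a description and not independent support. Base composition moved with these calls too: all 15 genes called higher had under 50% GC, and 16 of the 18 called lower had 50% or more. Without homozygous replicates 4 and 5, 12 of 93 pathway genes were called (12.9%), beside 11.9% of all genes in that fit. With the GC slope as a covariate 6 were called (6.67%, beside 4.24%), and with the length and GC offset 21 (23.3%, beside 21.3%).

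Store-operated entry, the route that STIM proteins open, had 10 of 14 genes tested. Of these 1 was called higher and 1 lower (20%, beside 25.4% of all genes), with a median of −0.12. Orai2, a pore-forming subunit that is prominent in brain, stood at 18.3, 23.8, 16.8 and 16.8 CPM in wild-type and 10.1, 15.7, 14.0 and 6.77 CPM in homozygous libraries. These did not overlap, but Orai2 was not called (log2 fold change −0.61, SE 0.271, adjusted p = 0.101). Orai3 had −0.52 (SE 0.285, adjusted p = 0.190). Orai1, the form best known from lymphocytes, had 32 counts over the wild-type group and 31 over the homozygous group and was not tested. Saraf, which turns store-operated entry off and is listed under its older name Tmem66, fell from 115 ± 23.8 to 82.3 ± 11.1 CPM (SD, n = 4 each, log2 fold change −0.51, adjusted p = 0.0163). Leaving out wild-type replicate 5 ended its call (adjusted p = 0.0871), and so did the offset for length and GC (−0.39, adjusted p = 0.0531). It was called without homozygous replicates 4 and 5 and with the GC covariate. Golph3, a Golgi protein, rose by a log2 fold change of 0.35 (adjusted p = 0.0394). That call ended without wild-type replicate 3 or 5, heterozygous replicate 4, or homozygous replicate 1, 4 or 5 (adjusted p of 0.0503 to 0.133), and under all 3 of those alternatives (0.109 to 0.631).

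Of the proteins that bind or tune the release channels, 16 of 21 tested were called (76.2%, beside 25.4% of all genes). They were 7 higher and 9 lower, with a list median of −0.377. With the length and GC offset that split turned to 6 higher and 2 lower, while 21.3% of all genes were called. Calm2, 1 of the genes for calmodulin, which binds both channel families, rose from 319 ± 61.5 to 943 ± 291 CPM, a log2 fold change of 1.56 (SE 0.176, adjusted p = 3.2e-06). It has pseudogenes that can share reads, so its level is uncertain. Homer1, a scaffold that ties IP3 receptors to glutamate receptors, rose from 48.7 ± 2.08 to 78.3 ± 4.38 CPM, a log2 fold change of 0.68 (SE 0.142, adjusted p = 0.00143). Ncs1, a calcium sensor that binds IP3 receptors, fell from 120 ± 11.03 to 56.8 ± 10.4 CPM (log2 fold change −1.06, SE 0.177, adjusted p = 0.000212). The Homer1 call ended with the offset and with the GC covariate (adjusted p = 0.1 and 0.0678), and that of Ncs1 with the covariate (0.107), while Calm2 was called under all 3. Calls in the list dropped to 3 higher and 2 lower without homozygous replicates 4 and 5, and to 1 higher and 1 lower with the GC covariate. Over all genes the share called dropped as well, to 11.9% and 4.24%.

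Calcium-binding proteins of the ER lumen had 13 of 16 genes tested, 5 called higher (38.5%, beside 25.4% of all genes) and a median of 0.361. Nucb2, a calcium-binding protein that is also the precursor of nesfatin, rose from 74.7 ± 16.3 to 231 ± 44.3 CPM (SD, n = 4 each), a log2 fold change of 1.60 (SE 0.189, adjusted p = 5.85e-06). The chaperone Hsp90b1 rose by 1.29, the disulfide isomerase Pdia3 by 1.26 and Sdf4 by 0.46 (adjusted p = 2.3e-06, 1.33e-05 and 0.00914). Calr, which encodes the major calcium buffer calreticulin, was not called (log2 fold change −0.11, SE 0.161, 95% interval −0.45 to 0.22, adjusted p = 0.642). With the GC covariate 3 genes of the list were called, Nucb2, Hsp90b1 and Pdia3, all higher, as they were with the offset and without homozygous replicates 4 and 5. The list had 4 called with the offset and 3 without those replicates. The share of all genes called was 4.24% with the covariate, 21.3% with the offset and 11.9% without those replicates. The Sdf4 call ended without those replicates (adjusted p = 0.1) and with the covariate (0.537).

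Among other pumps and their regulators 6 of 12 genes were tested and 1 was called (16.7%, beside 25.4% of all genes). Atp2c1, a Golgi calcium pump, rose by 0.41 (adjusted p = 0.0158). Its call ended without homozygous replicate 5 (adjusted p = 0.0639), without homozygous replicates 4 and 5 (0.162), with the offset (0.547) and with the GC covariate (0.477). Of the leak pathways, 8 of 10 genes were tested and 1 was called (12.5%, beside the same 25.4%). Tmbim6, an ER calcium leak channel, fell from 195 ± 21.1 to 128 ± 29.7 CPM (log2 fold change −0.59, adjusted p = 0.00738). The Tmbim6 call ended without homozygous replicates 4 and 5 (0.0676) and with the covariate (0.382). In IP3 production and removal, 19 of 23 genes were tested, with 1 called higher and 3 lower (21.1%, beside 25.4% of all genes). Plcb4, a phospholipase C, rose by 0.59 (adjusted p = 0.0081), and Chrm1, a muscarinic receptor that acts through phospholipase C, had −1.49 (adjusted p = 0.00469). Plcb4 lost its call without homozygous replicates 4 and 5 and with the covariate (0.106 and 0.545), and Chrm1 with the covariate (0.387). The IP3 kinases Itpkb and Itpkc had −0.91 and −1.35 (adjusted p = 0.0216 and 0.0326), and both calls ended when homozygous replicate 4 or wild-type replicate 3 was left out (adjusted p of up to 0.0839 and 0.133). Neither IP3 kinase was called under any of the 3 alternatives on base composition and doubtful libraries (0.0997 to 0.888). The Itpkc call also ended without wild-type replicate 2 or 5 or homozygous replicate 2 or 5. At the plasma membrane and mitochondria, 13 of 19 genes were tested and 4 were called (30.8%, beside 25.4% of all genes), all lower. This did not hold elsewhere: calls were 2 higher and 3 lower with the offset, 1 and 1 without homozygous replicates 4 and 5, and 0 with the covariate. Over all genes 21.3%, 11.9% and 4.24% were called in those fits. The exchanger Slc8a3 had −0.85 and the pump Atp2b2 −0.42 (adjusted p = 0.00207 and 0.00767), and the pump Atp2b4 had −0.44 (adjusted p = 0.0185). Atp2b2 lost its call under all 3 settings (0.0595 to 0.247) and Slc8a3 with the covariate (0.396). The Atp2b4 call ended without homozygous replicates 4 and 5 together (0.206), with the covariate (0.648), and without wild-type replicate 2 or 3 or homozygous replicate 4 or 5 (adjusted p of 0.0557 to 0.0615).

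**Figure D5:**
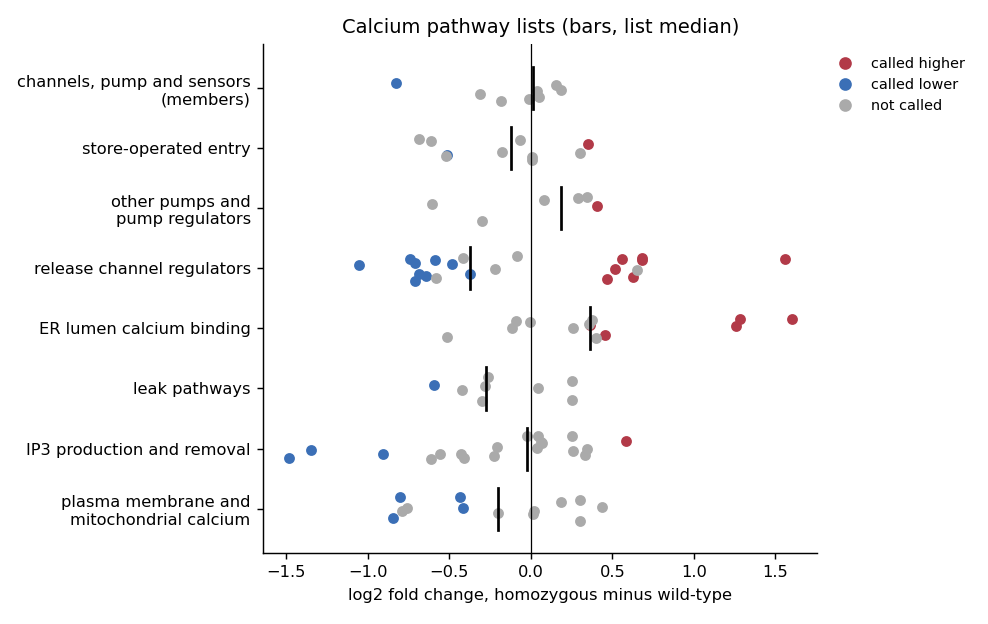
log2 fold change of homozygous minus wild-type mice (x axis) of each tested gene (points, coloured by call) among the members and in the 7 pathway lists (y axis), with the median of each list as a bar. Regulators of the release channels lie on both sides of 0, and the called genes of the ER lumen list all lie above 0.

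Against wild-type mice, heterozygous mice had 2 of these 90 genes called, both higher: Nucb2 by 0.94 (edgeR adjusted p = 0.0207) and Hsp90b1 by 0.60 (adjusted p = 0.0473). This is 2.22%, beside 0.596% of all genes. Omitting heterozygous replicate 1, 3 or 4 ended both calls, as did omitting wild-type replicate 1, 2 or 3, with adjusted p of 0.0637 to 0.119 for Nucb2 and 0.115 to 0.223 for Hsp90b1. Without heterozygous replicate 2, 6 genes were called (6.67%, beside 2.03% of all genes). Against heterozygous mice, homozygous mice had 5 called, all higher, namely Calm2 by 0.92 (adjusted p = 0.00964), Hsp90b1 by 0.69, Pdia3 by 0.74, Asph by 0.68 and Homer1 by 0.54 (adjusted p = 0.0166, 0.0186, 0.0228 and 0.0400). This is 5.56%, beside 2.2% of all genes. Each of these calls ended without heterozygous replicate 2, where Calm2 had an adjusted p of 0.0755. In that fit edgeR called 0 pathway genes, beside 0.0558% of all genes. Calls numbered 1 without heterozygous replicate 1 (1.1%, beside 0.389% of all genes) or homozygous replicate 4 (1.09%, beside 0.218%). They numbered 2 without heterozygous replicate 4 (2.2%, beside 0.389%) or homozygous replicate 5 (2.2%, beside 0.29%). They numbered 12 without homozygous replicate 1 (13.3%, beside 7.08%) and 11 without homozygous replicate 2 (12.1%, beside 8.02%). Without homozygous replicates 4 and 5 edgeR called 0 of 93, beside 0.00882% of all genes. Of the 93, 14 had an unadjusted p under 0.05, and the share of all genes under it is not given here. With all libraries DESeq2 called 10 (13.9%, beside 6.41% of all genes) and limma-voom 4 (4.44%, beside 0.726%).

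Stim1, as the member called, was also set beside every other gene across the 12 libraries. The genes with the most similar log2 CPM among 9998 were Lmtk3, Cx3cl1 and Mast2, with Pearson's r of 0.973, 0.971 and 0.97. The libraries share genotype and base composition, and r is given as a description. All 3 were called lower in homozygous mice (log2 fold change −1.59, −1.18 and −0.67), and all 3 have transcripts richer in GC than Stim1 (66.7, 57.1 and 55.6%). As they were picked for likeness to Stim1 over these same libraries, their lower calls are no separate result.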

How the data were processed

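Per the labels' protocols, cDNA was made from total RNA with a NuGEN Ovation kit, and paired reads came from a SOLiD 5500xl sequencer. The authors deposited raw counts per gene symbol, made on build mm10 per the submitters' processing notes. For the aligner, counting tool, annotation and strand, no setting is given in the sources used here. Of the table's numbered lines 58 were not analysed here, and 6133 genes had no count. The values were checked to be whole numbers with a different total in each library (979394 to 2330872), so a level of a few CPM rests on few reads. The growth protocol mentions more animals per genotype than the 4 of the design, and the design was followed.

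The test was that of edgeR 4.0.16 under R 4.3.3 (TMM factors, default filter on low counts, quasi-likelihood F tests, all 12 libraries in a single fit on genotype), which left 10737 genes. Adjusted p are Benjamini-Hochberg over all of them, from edgeR unless another tool is named, and the threshold was 0.05. Standard errors (SE) are the fold change over the square root of F, and 95% intervals use the fit's degrees of freedom. Alternatives were DESeq2 1.42.0, limma 3.58.1 voom, other scaling and filters, each library left out, a replicate block, and a length and GC offset made with mgcv 1.9.3. Leaving out homozygous replicates 4 and 5 together was tried because they stand apart. The GC slope covariate and the fit without a replicate term over 11 libraries were chosen after seeing the data. The fit was tested on simulated data. GENCODE M21 gave coordinates, lengths, GC and sequences, for 20717 symbols as written and 1889 through older names, while 1414 stayed unmatched.

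The members and lists were chosen with earlier results of these data known. All members are named, and of each pathway list up to 4 called genes by smallest p (mean of at least 1 CPM), with Orai1, Orai2, Orai3, Atp2a1, Atp2a3, Calr and Wfs1 always named. Of the genes this rule covers, 2 are not reported here. For the called member, the 3 genes most alike in log2 CPM (prior count 2) among genes with a mean of at least 5 CPM are named. Genes called in the other comparisons of the pathway lists were named because they were called. Marker lists covered neurons (3 called higher and 1 lower in homozygous against wild-type mice), astrocytes (2 and 1), oligodendrocytes (1 and 1), microglia (0 and 0), endothelium (0 and 0), smooth muscle with pericytes (0 and 1), choroid plexus with ependyma (0 and 0), cerebellum (0 and 0), striatum (1 and 0), pituitary (0 and 1) and hypothalamus (1 and 0).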

Additional observations from a re-analysis of the deposited data

Results flagged for a closer look

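Atp2a1, the SERCA pump of fast muscle, stood at 3.28 CPM (5 counts) in heterozygous replicate 4 and at 0 in the other 3 heterozygous libraries. Of 48 groups of 4 libraries examined by Dixon's test, this was the 1 marked. With 3 values at 0 any count in the other library is marked, so the test carries no information here, and its chance rate of about 1 in 20 groups does not apply. The gene had no count in wild-type libraries and at most 1.35 CPM in homozygous ones.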

How the results depend on the processing

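Of 573 values of the members' fold changes under other settings, 548 kept their direction and their side of the threshold, 2 (Ryr2 without homozygous replicate 1) passed it, 1 (Stim1 with the GC slope covariate, −0.48) lost it, and 22 changed sign, none of them called in either fit. With the GC slope covariate members called between homozygous and wild-type mice numbered 0 in place of 1. At an unadjusted p under 0.05 there was 1, and the share of all genes under it is not given here. Leaving out 1 library gave 1 to 2 there and 0 to 1 between homozygous and heterozygous mice. Sign changes for homozygous against wild-type were Itpr1 −0.024 and Itpr2 −0.029 with upper-quartile factors; Ryr1 0.12 with the replicate block and 0.25 with the length and GC offset; and Atp2a2 0.0103 with RLE factors, 0.0129 with no filter, 0.0151 at 1 CPM in 4 libraries, 0.0199 with DESeq2 and 0.0896 with the offset. Atp2a2 for homozygous against heterozygous was −0.13 without homozygous replicates 4 and 5 and −0.14 with the covariate. Leaving out 1 library gave −0.0679 to 0.0064 for Itpr1 in heterozygous against wild-type; −0.0735 to 0.105 for Itpr2, −0.515 to 0.0493 for Ryr1 and −0.116 to 0.0739 for Atp2a2 in homozygous against wild-type; and −0.0226 to 0.168 for Atp2a2 and −0.115 to 0.0600 for Stim2 in homozygous against heterozygous mice.

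Pathway genes called between homozygous and wild-type mice numbered 33, with 13 under the replicate block (25 in the same 11 libraries without it). They numbered 21 with the offset, 12 without homozygous replicates 4 and 5, 6 with the covariate, and 23 to 40 with 1 library left out. Shares of pathway genes called, with those of all genes in brackets, were 36.7% (25.4%), 14.3% (12.0%) under the block and 27.5% (19.2%) without it. They were 23.3% (21.3%) with the offset, 12.9% (11.9%) without homozygous replicates 4 and 5, and 6.67% (4.24%) with the covariate. With 1 library left out they ran from 25.3% (16.9%) to 44.0% (28.4%). Of the 33, 10 were called without replicates 4 and 5, 18 with the offset and 5 with the covariate. For heterozygous against wild-type calls of pathway genes numbered 2 (2.22%, with 0.596% of all genes), with 1 under upper-quartile factors (1.11%, 0.475%). They numbered 4 with no filter (3.51%, 1.57%), 7 with limma-voom (7.78%, 3.67%) and 6 with only the 2 genotypes fitted (6.82%, 3.64%). They numbered 7 without homozygous replicates 4 and 5 (7.53%, 3.79%), and 0 to 6 with 1 library left out (up to 6.67%, 2.03%). For homozygous against heterozygous they numbered 5 (5.56%, with 2.2% of all genes), with 11 with no filter (9.65%, 4.06%) and 10 with DESeq2 (13.9%, 6.41%). They numbered 2 with only the 2 genotypes (2.33%, 0.43%) and 2 over the 11 libraries with a labelled number (2.2%, 0.29%). They numbered 0 without homozygous replicates 4 and 5 (0.00882% of all genes), 0 with the covariate (0.00931%), and 0 to 12 with 1 library left out (up to 13.3%, 7.08%). Same-numbered libraries correlated from −0.265 to 0.337 over 8 pairs, and 4 of 10 correlated best with their own number, so the numbers are not taken to pair the mice. Over all genes the replicate block gave 757 higher and 565 lower calls against 1195 and 918 in the same 11 libraries without it, and Stim1 had −0.91 (adjusted p = 0.0117). Levels in wild-type mice per kb of all exons were 9.88 for Itpr1, 2.96 for Itpr2, 8.02 for Ryr2, 5.60 for Ryr3, 120.0 for Atp2a2 and 5.27 for Stim1. The causes of these shifts were not tested. Depth limits Ryr1 and Itpr3, which had 25 to 41 and 7 to 18 counts per genotype.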

Other observations

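Other regulators of the release channels that were called between homozygous and wild-type mice were named after their values were seen. The junctophilins Jph3 and Jph4, which hold the ER close to the plasma membrane in neurons, both fell: Jph3 from 45.7 ± 1.79 to 27.4 ± 8.14 CPM and Jph4 from 342 ± 70.8 to 201 ± 70.1 CPM (SD, n = 4 each). Their log2 fold changes were −0.71 and −0.74 (edgeR adjusted p = 0.0118 and 0.00503). Asph, whose gene also encodes junctin, a partner of ryanodine receptors, rose by 0.68 (adjusted p = 0.00179). Homer2, a scaffold related to Homer1, rose by 0.63 (adjusted p = 0.0119). Omitting homozygous replicate 4 ended the calls of Jph3 and Homer2 (adjusted p = 0.0503 and 0.0509).

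In 2 families related genes were called in opposite directions. Ahcyl1, which encodes the IP3 receptor inhibitor IRBIT, rose from 423 ± 41.7 to 585 ± 84.4 CPM (log2 fold change 0.46, adjusted p = 0.00578), and its relative Ahcyl2 fell from 239 ± 2.56 to 183 ± 19.9 CPM (−0.38, adjusted p = 0.0248). Bcl2, which binds IP3 receptors, rose by 0.52 (adjusted p = 0.0213), and Bcl2l1 had −0.69 (adjusted p = 0.0168). The Ahcyl2 call ended without wild-type replicate 2, 3 or 5 or homozygous replicate 1 or 4 (adjusted p of 0.0516 to 0.076). Those of Bcl2 and Bcl2l1 ended without wild-type replicate 3 or homozygous replicate 5 (adjusted p of up to 0.101 and 0.0746). Ahcyl1 and Bcl2 transcripts have 46.9 and 46.3% GC, and those of Ahcyl2 and Bcl2l1 47.9 and 55.9%. With the offset for length and GC, Ahcyl1, Ahcyl2, Bcl2, Asph and Homer2 were called and Jph3, Jph4 and Bcl2l1 were not. With the GC slope covariate edgeR called 0 of these 8 genes, as it did with homozygous replicates 4 and 5 left out.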
